A study of Rattus norvegicus with 3 samples.

Results

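The 10 genes described here encode colony-stimulating factors, cytokines of the interleukin-6 family and some of their receptors, studied in wound skin of diabetic rats. They were taken by symbol from the 32883 features of the deposited matrices, and all 10 were found once. Colony-stimulating factors are secreted proteins that drive the growth and survival of myeloid cells. Csf1 acts through Csf1r on macrophages, Csf3 acts through Csf3r on neutrophils, and Csf2 acts on both lineages through a different receptor. Il6, Il11, Lif and Osm are 4-helix cytokines whose receptors share the signalling chain gp130, encoded by Il6st, which activates JAK kinases and STAT3. Osmr is the chain that pairs with gp130 to bind Osm. In skin wounds these cytokines pass between immune and stromal cells and are known from inflammation, fibrosis and repair.

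Each group was 1 single-cell 3' library of full-thickness skin wounds from wild-type male Sprague-Dawley rats, 8 to 10 weeks old by the design text. The labels differ from the design text on age. All animals had been made diabetic with 65 mg/kg streptozotocin, a toxin of pancreatic beta cells, and had blood glucose over 16.7 mM, so there was no group without diabetes. Wounds of 15 mm diameter had received a carbon monoxide-releasing gel of hyaluronic acid (CO hydrogel), the gel alone (hydrogel), or nothing (untreated), and the tissue was taken on day 7. The labels do not give the number of animals per library, and with 1 library per group no difference was tested or checked in replicates.

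The deposited matrices held 109718517 UMIs (unique molecular identifiers, counted mRNA molecules; CO hydrogel), 109148721 UMIs (hydrogel) and 78233883 UMIs (untreated). The kept cells numbered 12659 in the CO hydrogel library, 12069 in the hydrogel library and 10550 in the untreated library, with median depths of 6096 UMIs (CO hydrogel), 5941 UMIs (hydrogel) and 2634 UMIs (untreated). Cells were clustered without the 10 genes, and clusters were called by marker lists as "X-like" classes. The classes with at least 100 cells in every library were fibroblast-like, macrophage or monocyte-like, neutrophil-like, endothelial-like and mural-like (pericytes and smooth muscle). The labelled skin tissue also held 246 (CO hydrogel), 120 (hydrogel) and 96 (untreated) keratinocyte-like cells. The mix differed widely: neutrophil-like cells made up 3.61% of CO hydrogel cells, 20.5% of hydrogel cells and 54.1% of untreated cells, and fibroblast-like cells 39.5% (CO hydrogel), 14.3% (hydrogel) and 12.4% (untreated). Between 276 and 454 barcode sequences were kept in both libraries of a pair, most of them in the same class in both (314 of 347 for CO hydrogel and hydrogel, 401 of 454 for CO hydrogel and untreated, 250 of 276 for hydrogel and untreated). Leaving all of them out moved no ratio of a gene in its main class by more than 0.077 on the log2 scale.

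Levels are UMIs of a gene divided by all UMIs of the class, as counts per 1000000 (CPM). A 3' UMI does not depend on transcript length, so CPM of different genes are set side by side. Other differences in capture between genes were not corrected. Brackets hold 95% intervals, exact Poisson for levels, exact conditional binomial for ratios and exact binomial for shares, and all of them cover counting error only. The home class of a gene is the one of the 5 compared classes with its highest mean CPM over the libraries.

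Most ligands and receptors were highest in different cells. Csf1r was highest in macrophage or monocyte-like cells among the compared classes, Csf3r in neutrophil-like cells and Osmr in mural-like cells, followed by fibroblast-like and endothelial-like cells in each library. Csf1 and Osm were highest in neutrophil-like cells, Il6, Il11 and Lif in fibroblast-like cells, and Csf2 and Csf3 in endothelial-like cells on average over the libraries. By number of molecules the picture depended on the library. Fibroblast-like cells held 68.5% of Csf1 UMIs (CO hydrogel, 67.4 to 69.7), 29.8% (hydrogel, 28.7 to 30.8) and 31.6% (untreated, 30.5 to 32.7), while neutrophil-like cells held 50.8% of them in the untreated library. Endothelial-like cells held 76.0% of Csf3 UMIs (CO hydrogel, 74.0 to 77.9), 39.2% (hydrogel, 37.8 to 40.6) and 8.26% (untreated, 7.68 to 8.86). The macrophage or monocyte-like class held 5.39% (CO hydrogel), 45.7% (hydrogel) and 68.5% (untreated) of Csf3 UMIs. The main cellular source of Csf3 thus differed between the libraries.

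**Figure D1:**
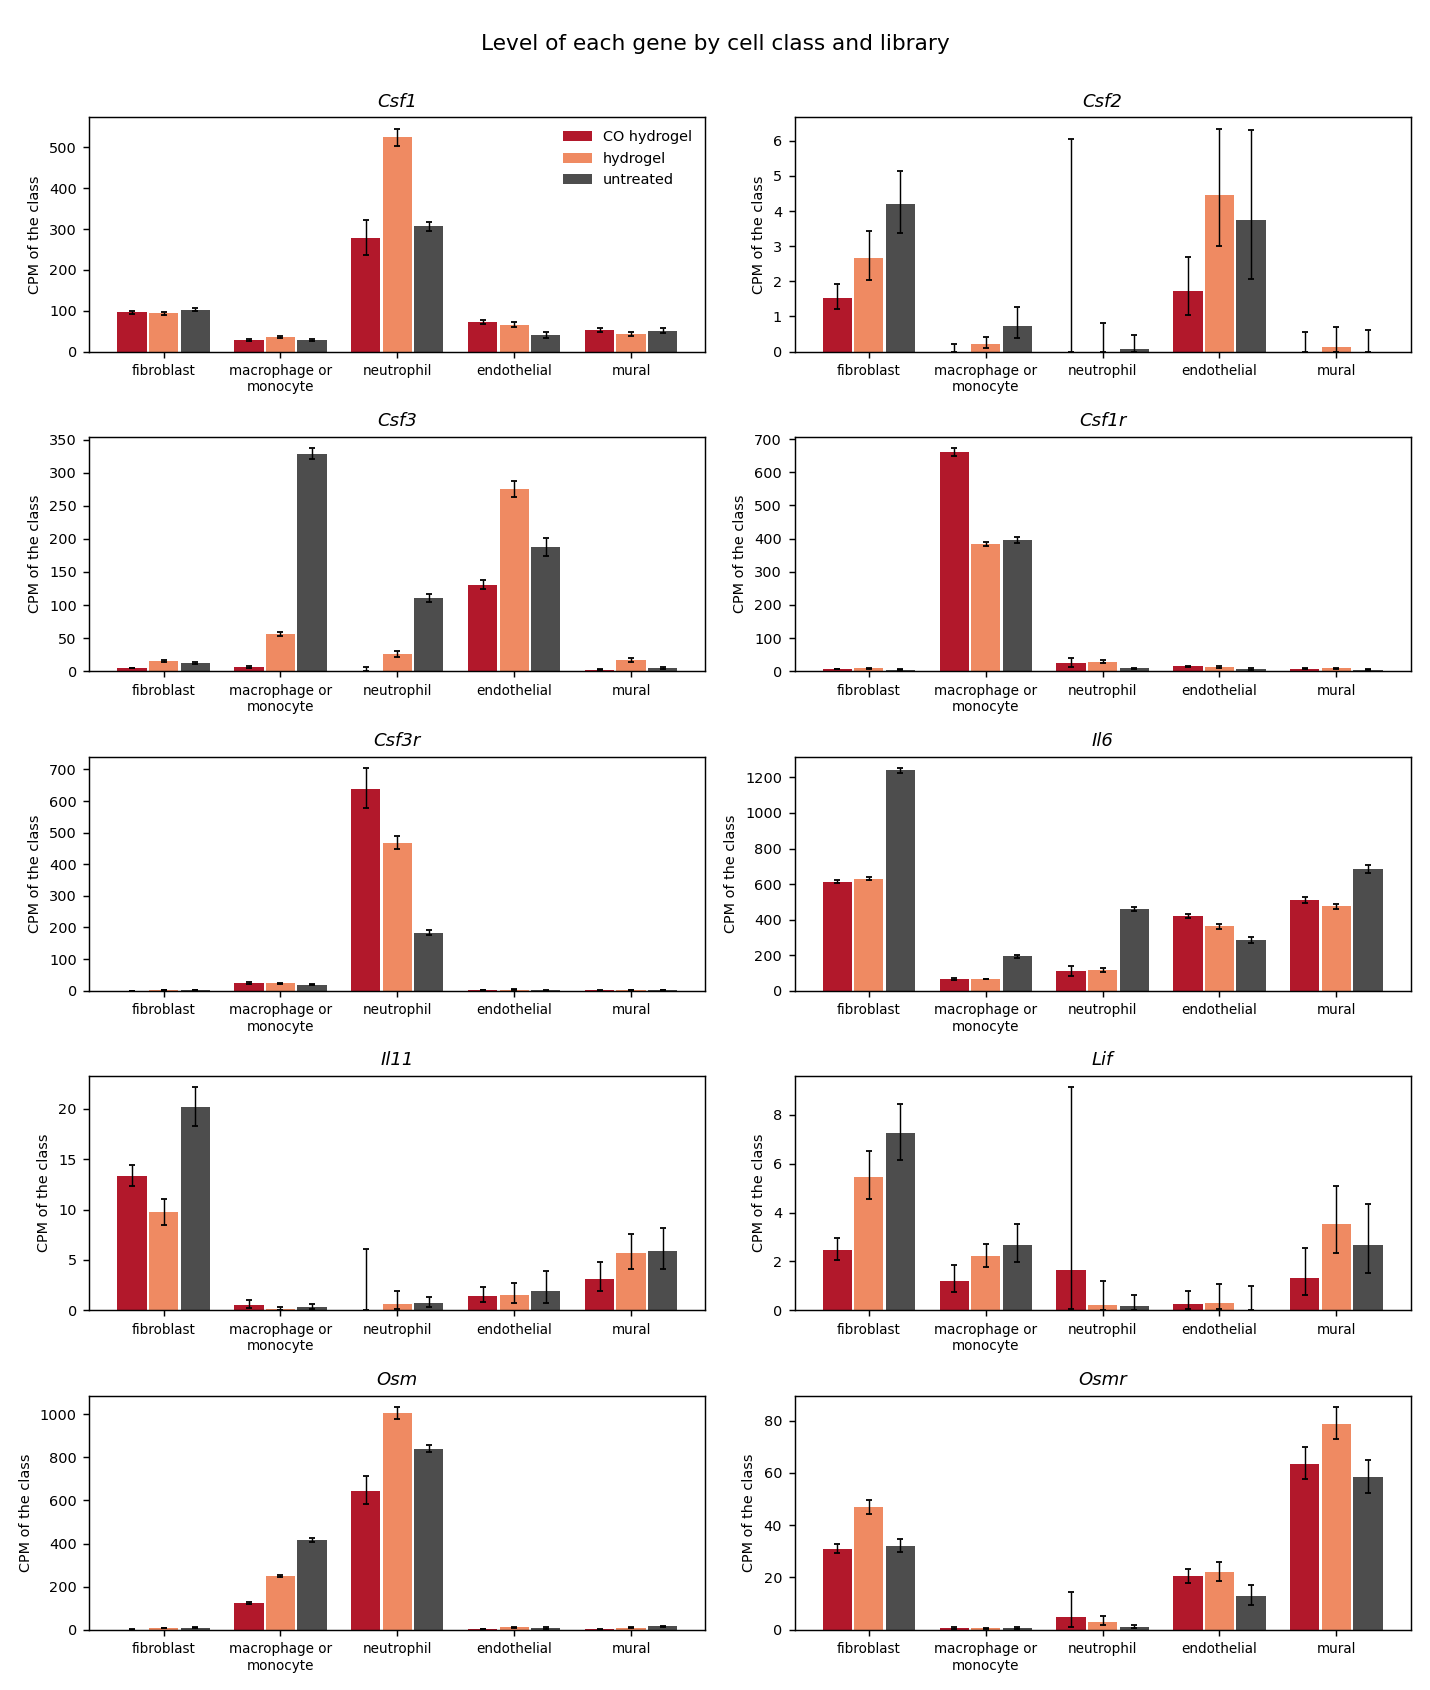
Level of each of the 10 genes (CPM of the class, vertical axes from 0 with a scale of their own) in the 5 compared classes of the CO hydrogel, hydrogel and untreated libraries. Bars are single libraries and whiskers are 95% counting intervals. Csf1r and Csf3r each stand out in 1 class, Il6 is spread over all 5, and the macrophage or monocyte bar of Csf3 is 329 CPM in the untreated library against 5.86 CPM in the CO hydrogel library.

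**Figure D2:**
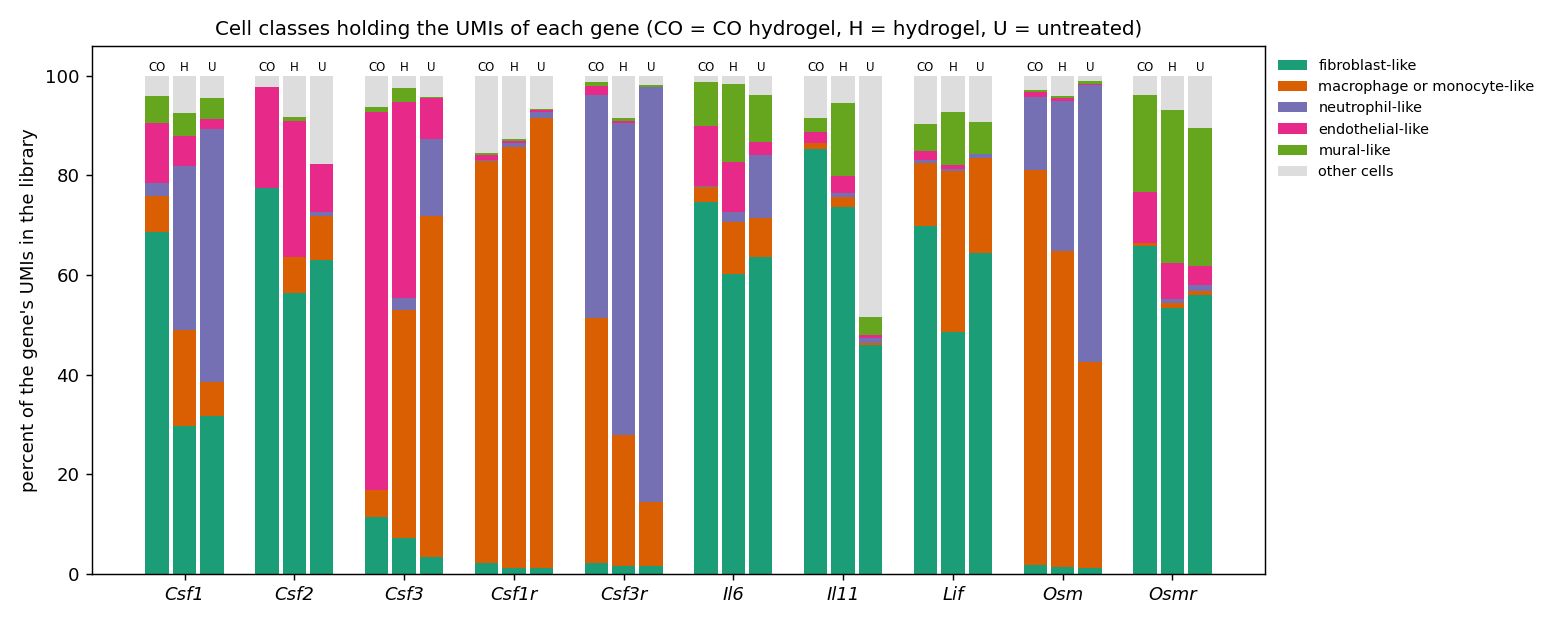
Percent of each gene's UMIs found in each class, for the CO hydrogel (CO), hydrogel (H) and untreated (U) libraries. Csf3 UMIs lie mostly in endothelial-like cells in the CO hydrogel library (76.0%) and mostly in macrophage or monocyte-like cells in the untreated library (68.5%).

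A gene was called where its level in its home class differed at least 2-fold with at least 20 UMIs over both libraries, and all 10 genes passed that minimum in each pair. For CO hydrogel over hydrogel, 0 of 10 were higher and 3 of 10 were lower (Csf2, Csf3 and Lif), where 3.93% of 13195 genes were higher and 3.15% were lower in their own home class. For CO hydrogel over untreated, 1 of 10 was higher (Csf3r) and 3 of 10 were lower (Csf2, Il6 and Lif), against 9.87% and 4.14% of 12984 genes. For hydrogel over untreated, 1 of 10 was higher (Csf3r) and 1 of 10 was lower (Il11), against 8.1% and 3.47% of 12838 genes. The median log2 ratio of the 10 genes was -0.48 for CO hydrogel over hydrogel, -0.45 for CO hydrogel over untreated and 0.25 for hydrogel over untreated, and that of all genes tested was -0.02, 0.08 and 0.10 in the same pairs. The pairs share libraries, so their values are not independent of each other.

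The scaling matters in neutrophil-like cells, the home class of Csf1, Csf3r and Osm. The median gene of that class lay 0.15 (CO hydrogel over hydrogel), 0.93 (CO hydrogel over untreated) and 0.85 (hydrogel over untreated) above 0 on the log2 scale, while in the other 4 classes the median lay between -0.01 and 0.20. Neutrophil-like cells also held fibroblast markers at a summed 4550 CPM (CO hydrogel), 2059 CPM (hydrogel) and 1513 CPM (untreated) and macrophage or monocyte markers at a summed 10436 CPM (CO hydrogel), 9553 CPM (hydrogel) and 6015 CPM (untreated), with none of them at 0, and their part in the neutrophil values was not tested. Relative to the median gene of the class, 0 of 10 genes were at least 2-fold higher in any pair. At least 2-fold lower by that measure were 4 genes for CO hydrogel over hydrogel (Csf1, Csf2, Csf3 and Lif), 5 for CO hydrogel over untreated (Csf1, Csf2, Il6, Lif and Osm) and 2 for hydrogel over untreated (Il6 and Il11). The same measure put 3.78% of all genes higher and 3.34% lower for CO hydrogel over hydrogel, 6.4% and 7.45% for CO hydrogel over untreated, and 5.16% and 6.74% for hydrogel over untreated.

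**Figure D3:**
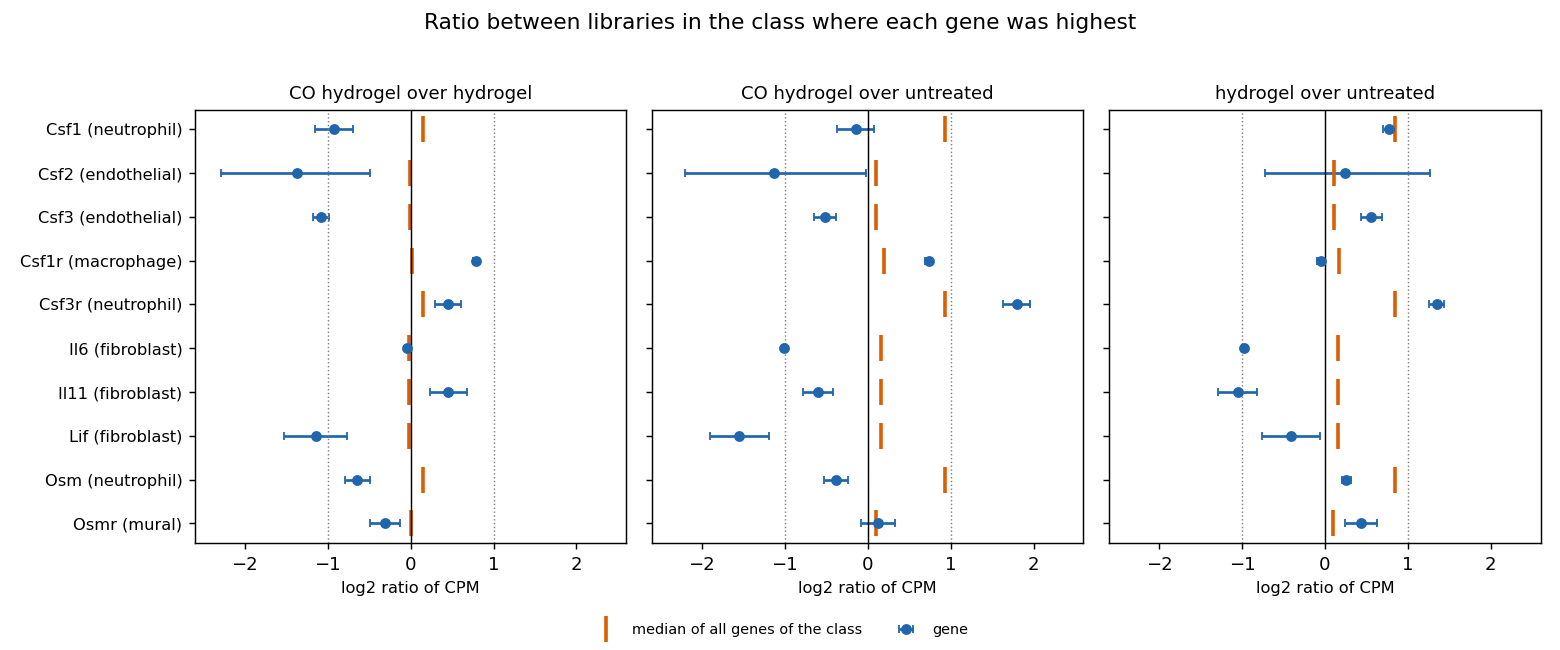
Log2 ratio of CPM between libraries for each gene in its home class (points, 95% counting intervals), with the median over all genes of that class (vertical orange marks) and dotted lines at a 2-fold difference. Csf2, Csf3 and Lif lie below the lower line in the left panel. In the panels against untreated, Csf3r lies above the upper line while the neutrophil median lies at 0.93 and 0.85.

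Csf1, the growth factor of macrophages, averaged over neutrophil-like cells at 277 CPM in the CO hydrogel library (237 to 322), 524 CPM in the hydrogel library (504 to 546) and 306 CPM in the untreated library (296 to 316). Over the class the hydrogel library was the high one, and the intervals of the CO hydrogel and untreated libraries overlapped. The log2 ratio was -0.92 for CO hydrogel over hydrogel (-1.15 to -0.70) and -0.14 for CO hydrogel over untreated (-0.38 to 0.08), and relative to the class median these were -1.07 and -1.08. For hydrogel over untreated it was 0.78 (0.70 to 0.85), which turned to -0.07 relative to the class median. In cluster 1 of the class Csf1 was at 276 CPM (CO hydrogel), 554 CPM (hydrogel) and 248 CPM (untreated). Cluster 0 differed little, with 300 CPM (CO hydrogel, 10 UMIs), 311 CPM (hydrogel) and 319 CPM (untreated). With both clusters weighted alike in each library, the log2 ratio for CO hydrogel over untreated was 0.06. In fibroblast-like cells Csf1 differed little, with 95.9 CPM in the CO hydrogel library, 93.8 CPM in the hydrogel library and 102 CPM in the untreated library. Endothelial-like cells had 71.5 CPM (CO hydrogel), 65.1 CPM (hydrogel) and 40.2 CPM (untreated), a log2 ratio of 0.83 for CO hydrogel over untreated (0.58 to 1.09). Macrophage or monocyte-like cells, which carry the receptor, had 27.8 to 36.4 CPM of the ligand. Mast or basophil-like cells reached 335 CPM (CO hydrogel), 571 CPM (hydrogel) and 404 CPM (untreated) from 85 (CO hydrogel), 35 (hydrogel) and 6 (untreated) cells, too few for a comparison. Il34, the other ligand of Csf1r, was highest in mural-like cells, at 13.7 CPM in the CO hydrogel library, 14.4 CPM in the hydrogel library and 22.9 CPM in the untreated library.

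Csf1r, the receptor tyrosine kinase of the macrophage lineage, reached 661 CPM of macrophage or monocyte-like cells in the CO hydrogel library (649 to 673), 383 CPM in the hydrogel library (377 to 390) and 397 CPM in the untreated library (388 to 406). The CO hydrogel library was thus above both others, by a log2 ratio of 0.79 over hydrogel (0.75 to 0.82) and 0.74 over untreated (0.69 to 0.78), short of the 2-fold threshold. After thinning every cell to 1000 UMIs, 45.3% of these cells had a Csf1r UMI (CO hydrogel, 43.5 to 47.1), 30.1% (hydrogel, 28.8 to 31.5) and 30.1% (untreated, 28.2 to 32.2). In fibroblast-like cells, which should lack the gene, 0.620% (CO hydrogel), 0.665% (hydrogel) and 0.647% (untreated) of equally thinned cells had 1. Without thinning the shares in macrophage or monocyte-like cells were 82.2% (CO hydrogel), 80.2% (hydrogel) and 73.7% (untreated), at median depths of 4853 UMIs (CO hydrogel), 7210 UMIs (hydrogel) and 7401 UMIs (untreated). Among the clusters of the class, Csf1r was highest in cluster 7, led by the scavenger receptor gene Cd163, with 901 CPM (CO hydrogel), 734 CPM (hydrogel) and 711 CPM (untreated). That cluster made up 37.6% of the class in the CO hydrogel library, 7.09% in the hydrogel library and 12.7% in the untreated library. With each cluster given the same weight in every library, the log2 ratio was 0.31 over hydrogel and 0.27 over untreated. Osteoclast-like cells, called so by their markers, had the highest Csf1r of any class, with 1027 CPM (CO hydrogel), 1065 CPM (hydrogel) and 966 CPM (untreated).

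The promoters of 6 of the 10 genes were matched in RefSeq (GRCr8), as 250 bases before to 50 after the annotated start. Those of Il6 (chr4:5894526-5894825, minus strand), Il11 (chr1:78098372-78098671, plus strand) and Csf2 (chr10:38889624-38889923, minus strand) are shown because Il11 was highest in another cluster of fibroblast-like cells than Il6 and Csf2. Each is written 5′ to 3′ along the strand of the gene, and capitals mark matches to the motifs searched.
Il6: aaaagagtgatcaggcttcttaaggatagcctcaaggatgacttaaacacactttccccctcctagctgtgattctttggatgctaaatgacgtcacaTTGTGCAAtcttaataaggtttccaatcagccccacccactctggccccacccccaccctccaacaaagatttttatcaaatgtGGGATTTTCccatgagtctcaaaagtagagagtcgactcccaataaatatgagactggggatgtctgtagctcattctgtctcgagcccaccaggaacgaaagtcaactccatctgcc
Il11: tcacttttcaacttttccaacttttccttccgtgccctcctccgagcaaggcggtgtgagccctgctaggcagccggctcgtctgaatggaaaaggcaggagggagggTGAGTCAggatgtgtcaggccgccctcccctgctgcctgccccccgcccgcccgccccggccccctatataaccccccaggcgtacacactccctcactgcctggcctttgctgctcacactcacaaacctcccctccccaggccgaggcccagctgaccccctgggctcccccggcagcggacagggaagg
Csf2: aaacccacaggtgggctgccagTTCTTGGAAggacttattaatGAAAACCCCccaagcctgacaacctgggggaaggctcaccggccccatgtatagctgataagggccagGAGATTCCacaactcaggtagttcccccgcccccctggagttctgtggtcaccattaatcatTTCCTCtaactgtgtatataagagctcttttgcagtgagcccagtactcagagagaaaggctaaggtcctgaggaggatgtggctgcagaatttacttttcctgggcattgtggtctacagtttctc
The motifs were searched on both strands. Il6 holds the NF-kB letters GGGNNTTTC (as GGGATTTTC, 68 bases before the start), found in 4.53% of 33469 promoters, and the C/EBP letters TTGCNNAA on the opposite strand (152 bases before the start), found in 10.6%. Il11 holds the AP-1 letters TGANTCA (as TGAGTCA, 142 bases before the start), found in 7.33%. Csf2 holds GGGNNTTTC on the opposite strand (207 bases before the start), the CK-1 core GAGATTCC (139 bases before the start, 0.861% of promoters), the STAT letters TTCNNNGAA (228 bases before the start, 8.87%) and the PU.1 core GAGGAA on the opposite strand (77 bases before the start, 27.6%). No matches overlap. GGGNNTTCC (NF-kB, 5.92% of promoters) and the core promoter letters TATAAA (14.2%) were searched too and these letters are in none of the 3 windows. A match of letters is a description and not a bound site.

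Csf2, the granulocyte-macrophage factor, was rare. Its 93 UMIs in the CO hydrogel library, 110 in the hydrogel library and 146 in the untreated library lay mostly in fibroblast-like cells, which held 77.4% (CO hydrogel, 67.6 to 85.4), 56.4% (hydrogel, 46.6 to 65.8) and 63.0% (untreated, 54.6 to 70.8) of them. Per UMI of the class, endothelial-like cells had 1.72 CPM in the CO hydrogel library (1.04 to 2.69, 19 UMIs), 4.45 CPM in the hydrogel library (3.00 to 6.35, 30 UMIs) and 3.76 CPM in the untreated library (2.05 to 6.30, 14 UMIs). Fibroblast-like cells had 1.54 CPM in the CO hydrogel library (1.20 to 1.93), 2.67 CPM in the hydrogel library (2.05 to 3.43) and 4.19 CPM in the untreated library (3.38 to 5.14). The CO hydrogel library was the lowest in both classes. The log2 ratio of CO hydrogel over untreated was -1.45 in fibroblast-like cells (-1.91 to -0.99) and -1.13 in endothelial-like cells (-2.20 to -0.02), and over hydrogel it was -0.80 (-1.31 to -0.29) in fibroblast-like and -1.37 (-2.28 to -0.49) in endothelial-like cells. Without cluster 13 the endothelial ratio over untreated was -0.99, just short of 2-fold. Within the fibroblast-like class most Csf2 lay in cluster 10, led by Gap43, Tnfrsf11b, Fbn1 and Dpp4, with 4.85 CPM (CO hydrogel, 3.45 to 6.63), 17.4 CPM (hydrogel, 12.0 to 24.4) and 7.12 CPM (untreated, 5.65 to 8.84). The CO hydrogel and untreated intervals overlapped there. That cluster made up 16.2% of the class in the CO hydrogel library, 7.59% in the hydrogel library and 44.7% in the untreated library. In cluster 2 Csf2 was at 1.27 CPM (CO hydrogel), 2.84 CPM (hydrogel) and 1.34 CPM (untreated, 6 UMIs). Macrophage or monocyte-like cells had 0 Csf2 UMIs in the CO hydrogel library, 8 in the hydrogel library and 13 in the untreated library, and T or NK-like cells had 0 (CO hydrogel), 3 (hydrogel) and 2 (untreated). The receptor chains lay in myeloid cells: Csf2ra was at 228 CPM (CO hydrogel), 209 CPM (hydrogel) and 213 CPM (untreated) in macrophage or monocyte-like cells.

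Csf3, which drives neutrophil production and release, differed more between libraries than any other of the 10 genes in the compared classes in which both libraries had at least 20 UMIs. In macrophage or monocyte-like cells it was at 5.86 CPM in the CO hydrogel library (4.78 to 7.12, 102 UMIs), 56.1 CPM in the hydrogel library (53.7 to 58.5, 2163 UMIs) and 329 CPM in the untreated library (320 to 337, 5784 UMIs). The level stepped down through the libraries, with log2 ratios of -3.26 for CO hydrogel over hydrogel (-3.56 to -2.97), -5.81 for CO hydrogel over untreated (-6.10 to -5.53) and -2.55 for hydrogel over untreated (-2.62 to -2.48). Over the class the CO hydrogel level was 56.0-fold below the untreated one, and the levels by cluster are given below. In neutrophil-like cells Csf3 had 0 UMIs in the CO hydrogel library, 25.5 CPM in the hydrogel library (117 UMIs) and 111 CPM in the untreated library (1306 UMIs). Over the class, a floor of 3 counts for the CO hydrogel library makes it at least 22.5-fold lower than the untreated library. Against the hydrogel library that bound is 5.18-fold. Both bounds mix the clusters of the class, whose shares are given beside Csf3r. Cluster 1 had 0 Csf3 UMIs (CO hydrogel, interval up to 6.39 CPM), 18.1 CPM (hydrogel) and 17.3 CPM (untreated). Cluster 0 had 0 UMIs (CO hydrogel, 26 cells, interval up to 111 CPM), 79.2 CPM (hydrogel) and 131 CPM (untreated, 1269 UMIs). Endothelial-like cells, by contrast, had 130 CPM in the CO hydrogel library (124 to 137), 275 CPM in the hydrogel library (263 to 288) and 187 CPM in the untreated library (173 to 201), with the hydrogel library highest and the CO hydrogel library lowest. The log2 ratio there was -1.08 for CO hydrogel over hydrogel (-1.18 to -0.98), -0.52 for CO hydrogel over untreated (-0.65 to -0.39) and 0.56 for hydrogel over untreated (0.43 to 0.69). Without the endothelial-like cluster 13, which made up 40.5% of the class in the CO hydrogel library, 22.2% in the hydrogel library and 24.1% in the untreated library, the first became -0.89 and was no longer 2-fold. It also fell short of 2-fold in 4 other alternatives, at -0.90 to -0.98. Fibroblast markers summed to 6117 CPM (CO hydrogel), 1270 CPM (hydrogel) and 1366 CPM (untreated) in endothelial-like cells, with 9 of 10 at least 2-fold higher for CO hydrogel over hydrogel and none at 0, and their part in these values was not tested. Keratinocyte-like cells had 28.4 CPM (CO hydrogel), 27.4 CPM (hydrogel) and 30.7 CPM (untreated), with overlapping intervals.

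The macrophage or monocyte signal sat in few cells. The top 1% of these cells held 70.6% of Csf3 UMIs in the CO hydrogel library, 52.1% in the hydrogel library and 27.0% in the untreated library, and single cells reached 5 UMIs (CO hydrogel), 89 UMIs (hydrogel) and 122 UMIs (untreated). Thinned to 1000 UMIs, 0.489% of the cells had a Csf3 UMI (CO hydrogel, 0.274 to 0.805), 3.20% (hydrogel, 2.71 to 3.75) and 12.0% (untreated, 10.6 to 13.5). T or NK-like cells, which should lack Csf3, had 0.504% (CO hydrogel), 0.198% (hydrogel) and 0% (untreated, 0 of 97 cells, interval up to 3.73%), so the CO hydrogel share in macrophage or monocyte-like cells was at the level of that background. Untreated cells with a Csf1r UMI had Csf3 less often (5.33%, 33 of 619) than those without one (14.8%, 213 of 1435). In the CO hydrogel library the shares were 0.432% with and 0.536% without a Csf1r UMI and in the hydrogel library 2.30% and 3.59%, with overlapping intervals in both. Cluster 11, led by Csf3 itself, the epidermal growth factor family gene Ereg, Pf4 and the arginase gene Arg1, made up 1.24% of the class in the CO hydrogel library, 11.4% in the hydrogel library and 30.2% in the untreated library. Within it Csf3 was at 29.0 CPM (CO hydrogel, 5 UMIs from 40 cells), 328 CPM (hydrogel) and 849 CPM (untreated), so both the share of the cluster and the level in it were lowest in the CO hydrogel library. It held 5222 of the 5784 untreated Csf3 UMIs of the class. Clusters 3, 5 and 7 had 4.36 to 4.62 CPM (CO hydrogel), 14.2 to 20.7 CPM (hydrogel) and 19.0 to 27.6 CPM (untreated). Cluster 9 had 18.1 CPM (CO hydrogel), 100 CPM (hydrogel) and 114 CPM (untreated). Cluster 14 had 1 UMI in the CO hydrogel library, 33.7 CPM in the hydrogel library and 1 UMI in the untreated library. Neutrophil markers moved with the class level of Csf3: their summed level in macrophage or monocyte-like cells was 539 CPM (CO hydrogel), 946 CPM (hydrogel) and 2499 CPM (untreated), 9 of 9 were at least 2-fold lower for CO hydrogel over untreated, and Retnlg was at 0 in the CO hydrogel library. Csf3 was lower in untreated neutrophil-like cells (111 CPM) than in untreated macrophage or monocyte-like cells (329 CPM). The part of neutrophil RNA in the result was not tested.

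Endothelial Csf3 went with markers of activated venules. Thinned endothelial-like cells with a UMI of the selectin genes Sele or Selp had a Csf3 UMI in 13.9% of cases in the CO hydrogel library (29 of 208), 26.7% in the hydrogel library (40 of 150) and 21.3% in the untreated library (13 of 61). Those without a selectin UMI had 1 in 5.01% (CO hydrogel, 54 of 1077), 7.95% (hydrogel, 41 of 516) and 7.98% (untreated, 15 of 188). For Il6 the same split gave 30.3% against 19.8% (CO hydrogel), 32.0% against 15.5% (hydrogel) and 23.0% against 20.2% (untreated), and the intervals of the untreated pair overlapped. For Csf3 the intervals were apart in the CO hydrogel and hydrogel libraries and overlapped in the untreated library.

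Csf3r, the receptor of Csf3 and a marker of mature neutrophils, reached 639 CPM of neutrophil-like cells in the CO hydrogel library (577 to 706), 468 CPM in the hydrogel library (449 to 489) and 184 CPM in the untreated library (176 to 192). Over the class the order was thus opposite to the class-level order of its ligand in myeloid cells. The log2 ratio was 1.80 for CO hydrogel over untreated (1.64 to 1.95) and 1.35 for hydrogel over untreated (1.26 to 1.43), of which 0.87 and 0.50 remained relative to the median gene of the class. For CO hydrogel over hydrogel it was 0.45 (0.29 to 0.60), or 0.30 relative to that median. Thinned to 1000 UMIs, 44.1% (CO hydrogel, 39.0 to 49.4), 35.8% (hydrogel, 33.9 to 37.8) and 15.9% (untreated, 14.9 to 16.9) of neutrophil-like cells had a Csf3r UMI, against at most 0.0808% of fibroblast-like cells. Unthinned shares were 52.3% (CO hydrogel), 52.7% (hydrogel) and 26.9% (untreated), at median depths of 1309 UMIs (CO hydrogel), 1801 UMIs (hydrogel) and 1951 UMIs (untreated). The class held 2 clusters. Cluster 1, with S100a9 and S100a8 among its leading genes, had 666 CPM (CO hydrogel), 502 CPM (hydrogel) and 434 CPM (untreated), and cluster 0, led by Il23a, Trem1 and Samsn1, had 180 CPM (CO hydrogel, 6 UMIs), 225 CPM (hydrogel) and 129 CPM (untreated). Cluster 0 made up 5.69% of neutrophil-like cells in the CO hydrogel library, 11.4% in the hydrogel library and 80.2% in the untreated library. With both clusters weighted alike in each library the log2 ratio was 0.60 for CO hydrogel over untreated and 0.30 for hydrogel over untreated. Macrophage or monocyte-like cells had 24.6 CPM (CO hydrogel), 23.5 CPM (hydrogel) and 19.1 CPM (untreated) of Csf3r, and held 49.2% (CO hydrogel), 26.4% (hydrogel) and 12.9% (untreated) of its UMIs.

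Il6, the founding member of its family, was the most abundant of the 10 genes, with 38544 UMIs in the CO hydrogel library, 24350 in the hydrogel library and 42842 in the untreated library. Fibroblast-like cells had 614 CPM in the CO hydrogel library (607 to 621), 631 CPM in the hydrogel library (621 to 641) and 1240 CPM in the untreated library (1225 to 1255). The CO hydrogel and hydrogel libraries were close to each other and below the untreated one, with log2 ratios of -1.02 for CO hydrogel over untreated, -0.97 for hydrogel over untreated and -0.04 for CO hydrogel over hydrogel. Mural-like cells had 509 CPM (CO hydrogel), 475 CPM (hydrogel) and 685 CPM (untreated), in the same direction and smaller. Fibroblast markers in mural-like cells summed to 21517 CPM (CO hydrogel), 17521 CPM (hydrogel) and 9505 CPM (untreated). Of 10 markers 5 were at least 2-fold higher for CO hydrogel over untreated, and their part in the mural values was not tested. In macrophage or monocyte-like cells Il6 was at 66.3 CPM (CO hydrogel), 65.7 CPM (hydrogel) and 193 CPM (untreated), and in neutrophil-like cells at 110 CPM (CO hydrogel), 115 CPM (hydrogel) and 461 CPM (untreated). Neutrophil markers in the former, given beside Csf3, were also highest in the untreated library, and their part was not tested. Neutrophil-like cluster 0, whose shares are given beside Csf3r, had 300 CPM (CO hydrogel, 10 UMIs), 348 CPM (hydrogel) and 519 CPM (untreated). Cluster 1 had 98.8 CPM (CO hydrogel), 82.7 CPM (hydrogel) and 197 CPM (untreated). Endothelial-like cells ran the other way from these classes, with 422 CPM in the CO hydrogel library (410 to 434), 362 CPM in the hydrogel library (348 to 376) and 283 CPM in the untreated library (266 to 301). The fibroblast markers in endothelial-like cells given beside Csf3 moved with that last result, and 10 of 10 were at least 2-fold higher for CO hydrogel over untreated. Their part in the endothelial values was not tested. Thinned to 1000 UMIs, 32.2% (CO hydrogel, 30.9 to 33.5), 31.8% (hydrogel, 29.6 to 34.1) and 48.3% (untreated, 45.4 to 51.1) of fibroblast-like cells had an Il6 UMI, against 4.03% (CO hydrogel), 1.19% (hydrogel) and 5.15% (untreated) of T or NK-like cells. Unthinned, the shares were 62.2% (CO hydrogel), 61% (hydrogel) and 76.7% (untreated), at median depths of 9171 UMIs (CO hydrogel), 13492 UMIs (hydrogel) and 16263 UMIs (untreated).

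Among the 4 fibroblast-like clusters, Il6 was lower in the CO hydrogel than in the hydrogel library in each. In cluster 2, led by the chemokine genes Cxcl13 and Cxcl12, it was at 924 CPM (CO hydrogel), 1109 CPM (hydrogel) and 1692 CPM (untreated). In cluster 10, led by Gap43 and Tnfrsf11b and including the universal fibroblast markers Dpp4 and Pi16, it was at 600 CPM (CO hydrogel), 1268 CPM (hydrogel) and 1610 CPM (untreated). In cluster 12, led by the matrix genes Cilp and Eln, it was at 472 CPM (CO hydrogel), 967 CPM (hydrogel) and 520 CPM (untreated), and there the hydrogel library alone was high. Cluster 6, led by Tnn, Prss35 and Col12a1, was low throughout, at 49.9 CPM (CO hydrogel), 72.6 CPM (hydrogel) and 169 CPM (untreated), and made up 20.5% of fibroblast-like cells in the CO hydrogel library, 43.4% in the hydrogel library and 25.4% in the untreated library. With the clusters weighted alike in each library the log2 ratio was -0.61 for CO hydrogel over hydrogel, -1.05 for CO hydrogel over untreated and -0.44 for hydrogel over untreated.

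Il11, the gp130 cytokine tied to fibroblast activation and fibrosis, lay in the cells that were low in Il6. In the class as a whole it was at 13.3 CPM in the CO hydrogel library (12.3 to 14.4, 625 UMIs), 9.74 CPM in the hydrogel library (8.51 to 11.1, 226 UMIs) and 20.2 CPM in the untreated library (18.3 to 22.1, 443 UMIs). Cluster 6 had 51.4 CPM (CO hydrogel, 532 UMIs), 16.3 CPM (hydrogel, 176 UMIs) and 74.7 CPM (untreated, 395 UMIs), with no overlap of intervals, while clusters 2, 10 and 12 had between 0.528 and 8.18 CPM. The hydrogel library was thus the lowest in the cluster that carried the gene. Over the class the log2 ratio was 0.45 for CO hydrogel over hydrogel (0.23 to 0.68), -0.60 for CO hydrogel over untreated (-0.78 to -0.42) and -1.05 for hydrogel over untreated (-1.29 to -0.82). The values moved widely with the processing. Under a stricter cell filter they were -0.68 for CO hydrogel over hydrogel, -0.24 for CO hydrogel over untreated and 0.45 for hydrogel over untreated. With each library clustered by itself they were -1.94, -3.80 and -1.86 in the same pairs, and after thinning to 1000 UMIs 1.43, 0.10 and -1.33. The cause was not tested. Proliferating-like cells carried Il11 too, at 25.7 CPM (CO hydrogel), 8.72 CPM (hydrogel) and 110 CPM (untreated), and held 48.2% of all Il11 UMIs of the untreated library (45.0 to 51.4). Thinned fibroblast-like cells with an Il6 UMI had an Il11 UMI in 0.321% of cases in the CO hydrogel library (5 of 1557), 0.570% in the hydrogel library (3 of 526) and 0.503% in the untreated library (3 of 597). Those without an Il6 UMI had 1 in 1.31% (CO hydrogel, 43 of 3279), 0.444% (hydrogel, 5 of 1127) and 1.56% (untreated, 10 of 640). Only the CO hydrogel pair had intervals that did not overlap.

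**Figure D4:**
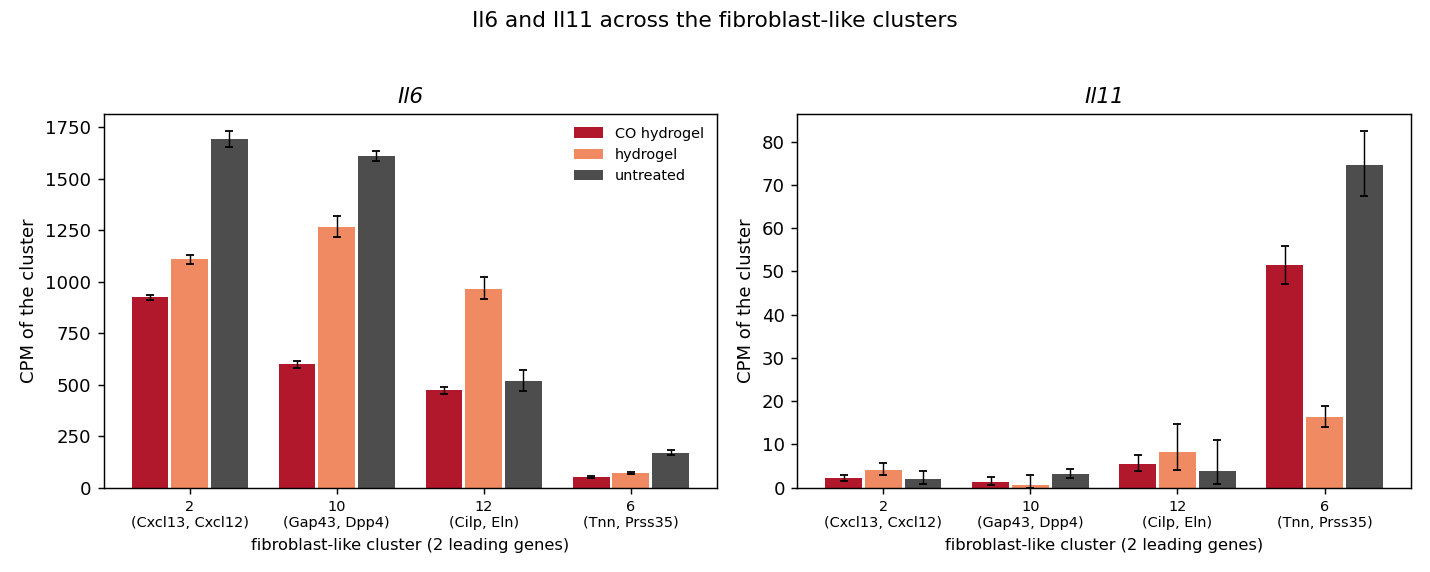
Il6 and Il11 levels (CPM of the cluster, axes from 0) in the 4 fibroblast-like clusters of the CO hydrogel, hydrogel and untreated libraries, with 95% counting intervals. Il6 is high in clusters 2, 10 and 12 and lower in the CO hydrogel than in the hydrogel library in all 4, while Il11 is high in cluster 6, where the hydrogel library is lowest at 16.3 CPM.

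Lif, leukaemia inhibitory factor, was rare and mostly stromal. Fibroblast-like cells had 2.47 CPM in the CO hydrogel library (2.04 to 2.97, 116 UMIs), 5.47 CPM in the hydrogel library (4.56 to 6.51, 127 UMIs) and 7.24 CPM in the untreated library (6.16 to 8.46, 159 UMIs). The CO hydrogel library was below both others without overlap of the intervals, with log2 ratios of -1.15 over hydrogel (-1.52 to -0.77) and -1.55 over untreated (-1.91 to -1.20). For hydrogel over untreated it was -0.40 (-0.75 to -0.06). In cluster 2 it was at 3.49 CPM (CO hydrogel), 8.52 CPM (hydrogel) and 14.1 CPM (untreated), and in cluster 10 at 1.74 CPM (CO hydrogel), 1.06 CPM (hydrogel, 2 UMIs) and 5.71 CPM (untreated). Macrophage or monocyte-like cells had 1.21 CPM (CO hydrogel), 2.20 CPM (hydrogel) and 2.67 CPM (untreated), and endothelial-like cells had 3 UMIs (CO hydrogel), 2 UMIs (hydrogel) and 0 UMIs (untreated). Lif and Osm are neighbours in the RefSeq gene order (assembly GRCr8) and had different home classes. Osm was at most 9.98 CPM in fibroblast-like cells, and Lif at most 2 UMIs in the neutrophil-like cells of any library. Both were found in macrophage or monocyte-like cells, which held 12.7% (CO hydrogel), 32.4% (hydrogel) and 19.0% (untreated) of Lif UMIs.

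Osm, oncostatin M, is the gp130 cytokine of myeloid cells. Neutrophil-like cells had 644 CPM in the CO hydrogel library (582 to 711), 1005 CPM in the hydrogel library (976 to 1034) and 839 CPM in the untreated library (822 to 856). Over the class the CO hydrogel library was lowest and the hydrogel library highest. The log2 ratio was -0.64 for CO hydrogel over hydrogel (-0.79 to -0.49) and -0.38 for CO hydrogel over untreated (-0.53 to -0.24), or -0.79 and -1.31 relative to the class median. For hydrogel over untreated it was 0.26 (0.21 to 0.31), turning to -0.59 relative to that median. With both clusters of the class weighted alike in each library it was -0.17. Within each cluster Osm was highest in the untreated library. Cluster 1 had 671 CPM (CO hydrogel), 1063 CPM (hydrogel, 1032 to 1096) and 1139 CPM (untreated, 1094 to 1185). Cluster 0 had 180 CPM (CO hydrogel, 6 UMIs), 578 CPM (hydrogel) and 772 CPM (untreated). Macrophage or monocyte-like cells, which held 79.3% of Osm UMIs in the CO hydrogel library, 63.5% in the hydrogel library and 41.3% in the untreated library, were at 123 CPM in the CO hydrogel library (118 to 128), 251 CPM in the hydrogel library (246 to 256) and 418 CPM in the untreated library (409 to 428). The level stepped down as it did for Csf3, with log2 ratios of -1.03 for CO hydrogel over hydrogel (-1.10 to -0.96), -1.77 for CO hydrogel over untreated (-1.84 to -1.70) and -0.74 for hydrogel over untreated (-0.78 to -0.69). Thinned to 1000 UMIs, 11% (CO hydrogel), 18.6% (hydrogel) and 26.8% (untreated) of these cells had an Osm UMI, against 0.186% (CO hydrogel), 1.33% (hydrogel) and 1.13% (untreated) of fibroblast-like cells. The neutrophil markers given beside Csf3 moved with this result as well. Untreated neutrophil-like cells were higher in Osm than untreated macrophage or monocyte-like cells, and the part of neutrophil RNA in these values was not tested. Fibroblast-like cells had 1.05 CPM (CO hydrogel), 8.19 CPM (hydrogel) and 9.98 CPM (untreated) of Osm beside summed neutrophil markers of 143 CPM (CO hydrogel), 334 CPM (hydrogel) and 575 CPM (untreated).

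Osmr, the receptor chain for Osm, was stromal and vascular. Mural-like cells had 63.5 CPM in the CO hydrogel library (57.7 to 69.9), 78.9 CPM in the hydrogel library (72.8 to 85.3) and 58.4 CPM in the untreated library (52.4 to 64.9). They also held the fibroblast markers given beside Il6, whose part in these values was not tested. Fibroblast-like cells had 31.0 CPM in the CO hydrogel library (29.4 to 32.6), 46.9 CPM in the hydrogel library (44.2 to 49.8) and 32.1 CPM in the untreated library (29.7 to 34.5), and endothelial-like cells 20.5 CPM (CO hydrogel), 22.2 CPM (hydrogel) and 12.9 CPM (untreated). In mural-like and fibroblast-like cells the hydrogel library was the high one, and the other two overlapped. The log2 ratio of hydrogel over untreated was 0.43 in mural-like cells (0.24 to 0.63) and 0.55 in fibroblast-like cells (0.41 to 0.69), and that of CO hydrogel over hydrogel -0.31 (-0.49 to -0.13) and -0.60 (-0.71 to -0.48). Mural markers in fibroblast-like cells were highest in the hydrogel library too, at a summed 304 CPM (CO hydrogel), 647 CPM (hydrogel) and 263 CPM (untreated), with 6 of 8 tested at least 2-fold higher for hydrogel over untreated and none at 0, and their part in the fibroblast values was not tested. Osmr had 3 UMIs (CO hydrogel), 14 UMIs (hydrogel) and 14 UMIs (untreated) in neutrophil-like cells, the class highest in Osm, at 4.92 CPM (CO hydrogel), 3.05 CPM (hydrogel) and 1.18 CPM (untreated). In macrophage or monocyte-like cells it was at most 0.632 CPM. Osmr neighbours Lifr, the receptor chain of Lif, in the same RefSeq assembly. Lifr was highest in endothelial-like cells, at 15.6 CPM (CO hydrogel), 9.34 CPM (hydrogel) and 5.37 CPM (untreated).

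The wider pathway was read in 7 gene lists, each gene in its own home class and by the same 2-fold rule. The counts stand beside the shares of all genes given above, which were 3.93% higher and 3.15% lower for CO hydrogel over hydrogel, 9.87% and 4.14% for CO hydrogel over untreated, and 8.1% and 3.47% for hydrogel over untreated. Of 10 receptor chains 8 had enough UMIs. By this rule 2 were higher (Lifr and Cntfr) and 0 lower for CO hydrogel over untreated, for hydrogel over untreated 1 was higher (Cntfr), and for CO hydrogel over hydrogel 0 in either direction, with list medians of 0.45 for CO hydrogel over untreated, 0.48 for hydrogel over untreated and 0.02 for CO hydrogel over hydrogel. The shared chain Il6st was highest in endothelial-like cells, at 110 CPM (CO hydrogel), 125 CPM (hydrogel) and 89.3 CPM (untreated), within 2-fold. Il6r was at 152 CPM (CO hydrogel), 110 CPM (hydrogel) and 78.6 CPM (untreated) in neutrophil-like cells, a log2 ratio of 0.95 for CO hydrogel over untreated that was 0.02 relative to the class median. Il11ra1 was at 93.2 CPM (CO hydrogel), 84.8 CPM (hydrogel) and 61.1 CPM (untreated) in fibroblast-like cells. Of 8 other ligands 5 were tested. For CO hydrogel over untreated, Cntf was higher and Clcf1 lower (39.6 CPM in CO hydrogel against 82.4 CPM in untreated macrophage or monocyte-like cells), and 0 passed in the other pairs. Cntf had 36 of 11041861 endothelial-like UMIs in the CO hydrogel library and 6 of 3727671 in the untreated library. Its ratio was just past 2-fold and short of it relative to the class median of 0.09. The medians were 0.25 for CO hydrogel over untreated, -0.18 for hydrogel over untreated and -0.08 for CO hydrogel over hydrogel. Among the kinases and STATs, Stat5b was higher and Stat5a lower for both CO hydrogel over untreated and hydrogel over untreated, and 0 passed for CO hydrogel over hydrogel. In neutrophil-like cells, its home class, Stat5b had log2 ratios of 2.44 for CO hydrogel over untreated and 1.88 for hydrogel over untreated, which were 1.51 and 1.03 relative to the class median.

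Of 13 genes induced through STATs or damping their signal, 5 were lower and 0 higher for CO hydrogel over untreated (Socs3, Cish, Pim1, Timp1 and Lcn2), where 4.14% of all genes were lower and 9.87% higher, 3 were lower for hydrogel over untreated (Cish, Timp1 and Lcn2), and none passed 2-fold for CO hydrogel over hydrogel. The median log2 ratio over the list was -0.71 for CO hydrogel over untreated, -0.35 for hydrogel over untreated and -0.39 for CO hydrogel over hydrogel, where the medians over all genes given above lay between -0.02 and 0.10. Socs3, the inhibitor induced by gp130 signalling, was at 108 CPM (CO hydrogel), 182 CPM (hydrogel) and 308 CPM (untreated) in neutrophil-like cells, a log2 ratio of -1.51 for CO hydrogel over untreated. Timp1, an inhibitor of matrix proteases, was at 2138 CPM (CO hydrogel), 2820 CPM (hydrogel) and 6154 CPM (untreated) in fibroblast-like cells, and Lcn2, an iron-binding defence protein, at 63.7 CPM (CO hydrogel), 119 CPM (hydrogel) and 764 CPM (untreated) there. The summed neutrophil markers in fibroblast-like cells, given above, moved the same way as Lcn2, and their part was not tested.

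Of 7 inflammatory genes upstream of these cytokines, Il1a and Tnfaip3 were lower for CO hydrogel over hydrogel and for CO hydrogel over untreated, Il1a and Tnf for hydrogel over untreated, and none was higher. Their medians were -0.64 for CO hydrogel over hydrogel, -0.86 for CO hydrogel over untreated and -0.29 for hydrogel over untreated. Il1a was at 19.7 CPM (CO hydrogel), 73.6 CPM (hydrogel) and 197 CPM (untreated) in neutrophil-like cells. Of 10 immediate-early genes known to respond to tissue dissociation 9 were listed, and none passed 2-fold in any pair. Their medians were -0.49 for CO hydrogel over hydrogel, -0.15 for CO hydrogel over untreated and 0.18 for hydrogel over untreated. For CO hydrogel over hydrogel the median of the 10 genes was -0.48 and that of all genes tested -0.02. The part of dissociation in the ratios was not tested. Of 6 myeloid transcription factors, Irf8 was higher and Gfi1 lower for hydrogel over untreated, and none passed for the other pairs, where Gfi1 had too few UMIs, with medians of -0.36 for CO hydrogel over hydrogel, -0.14 for CO hydrogel over untreated and -0.21 for hydrogel over untreated. The list members were chosen with earlier results of these data known.

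Over all kept cells, the levels mix cell numbers with levels per cell, and fewer cells of a type and less RNA per cell cannot be told apart in them. Osm was at 28.9 CPM in the CO hydrogel library, 166 CPM in the hydrogel library and 258 CPM in the untreated library, a log2 ratio of -3.16 for CO hydrogel over untreated that became -1.16 with the class shares held at their mean over the libraries. Csf3r was at 9.34 CPM (CO hydrogel), 37.5 CPM (hydrogel) and 37.9 CPM (untreated), a log2 ratio of -2.02 for CO hydrogel over untreated that turned to 1.42 at the mean class mix. Csf1r was at 153 CPM (CO hydrogel), 191 CPM (hydrogel) and 112 CPM (untreated), and its ratio for CO hydrogel over hydrogel of -0.32 turned to 0.64. Csf3 was at 20.3 CPM (CO hydrogel), 51.6 CPM (hydrogel) and 122 CPM (untreated), and its log2 ratio for CO hydrogel over untreated was -2.59 over all cells and -3.04 at the mean mix. Il6 was at 414 CPM (CO hydrogel), 266 CPM (hydrogel) and 621 CPM (untreated), and its log2 ratio for CO hydrogel over hydrogel of 0.64 became 0.01. Between all cells and the mean class mix the sign also turned for Csf3r in the other pairs (-2.01 and 0.26 for CO hydrogel over hydrogel, -0.01 and 1.15 for hydrogel over untreated), and for Csf1 in hydrogel over untreated (-0.37 and 0.30). For Osmr it turned in CO hydrogel over hydrogel (0.09 and -0.47) and, ending near 0, in CO hydrogel over untreated (0.38 and -0.0017). For Csf1r it did so in CO hydrogel over hydrogel alone, with 0.45 and 0.82 for CO hydrogel over untreated.

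**Figure D5:**
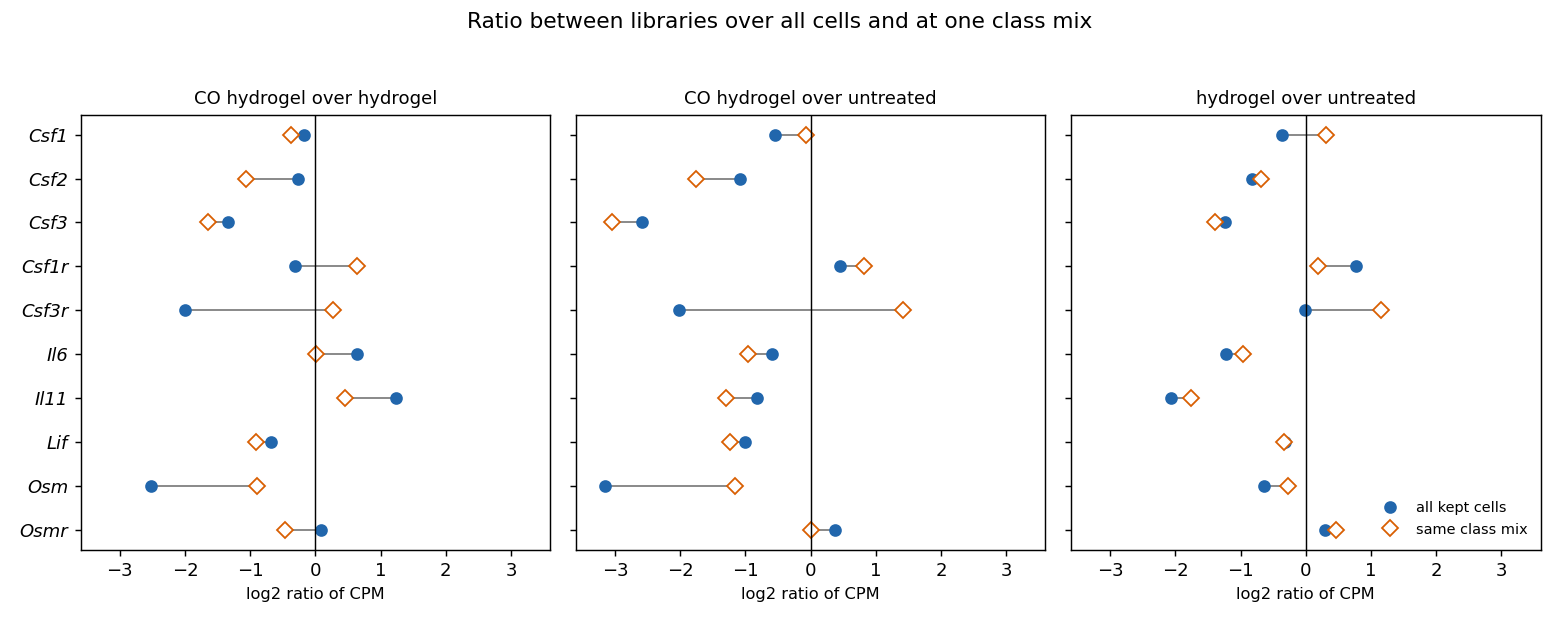
Log2 ratio of CPM between libraries for each gene over all kept cells (filled circles) and with the class shares held at their mean over the 3 libraries (open diamonds), joined by a line. Csf3r moves from -2.02 to 1.42 in the middle panel, and Osm from -3.16 to -1.16.

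For each of the 10 genes the 3 genes with the most similar level over the 15 points formed by 5 classes and 3 libraries were taken from 12017 candidates (Pearson's r of log2(CPM + 10)). The points share libraries and classes, so r is given as a description. Csf1r ran with RT1-Ba (r = 0.997), Folr2 and Adgre1, Csf3r with Hps5 (0.991), Rhov and Cd33, and Osm with Mefv (0.995), Nlrp3 and Tlr2. Osmr ran with Tpm1 (0.988), Tgfb1i1 and Mgp, and Il11 with Sv2c (0.985), Ndn and Cyp1b1. For Csf1 the nearest were Marcks (0.936), Ggt1 and Rpp14, for Csf2 Ca8 (0.932), Pcbd1 and Inhbb, and for Lif Nek6 (0.910), Ppif and Tiam2. The lowest values were those of Il6, with Spry2 (0.887), Slc38a2 and Plat, and of Csf3, with Giot1 (0.85), St8sia4 and Cd93.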

How the data were processed

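The deposited matrices hold UMI counts per gene and cell barcode, made from 10x Genomics 3' libraries of wound tissue dissociated with an enzyme kit for about an hour, per the labels' protocols. The file headers name Cell Ranger 6.0.1. Per the submitters' processing notes, the tools were DESeq 1.38.0, Seurat 4.2.0 and Cell Ranger 7.0.0, with the rn6 build. Enzymatic dissociation can itself induce immediate-early and cytokine genes, so genes known to respond to it were read as a list of their own.

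From the deposited counts, barcodes with at least 500 UMIs, at least 300 genes and at most 20% mitochondrial UMIs were kept. In each library the barcodes with the highest Scrublet doublet scores were removed at 0.8% per 1000 barcodes, because the caller's own threshold marked 0 barcodes in the untreated library. This left 35278 of 43701 barcodes. With scanpy 1.11.5 and Python 3.11.15, 2000 variable genes without the 10 described here, 30 components and 20 neighbours were used, and Leiden at resolution 1 found 26 clusters. A cluster was called "X-like" for the class with the highest marker score among those with at least 3 markers found in at least 20% of its cells, with a score of at least 0.2 and no more markers of another class among its 10 leading genes. A cluster with a median depth below 1/3 of its library's median also needed at least 1 own marker among those genes. The scoring was chosen after seeing the data, and 1 cluster stayed unnamed. That was cluster 20, by the depth rule, though its best class was neutrophil-like. It had 306 cells in the hydrogel library, 1 in CO hydrogel and 15 in untreated. It held 7.38% of Csf3r, 5.26% of Csf1 and 2.92% of Osm UMIs of the hydrogel library, which the neutrophil-like values leave out.

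Counts were summed per library and class and divided by the class total (CPM), with differences given as log2 ratios and exact 95% intervals. Shares of cells were compared after thinning each cell to 1000 UMIs and leaving out shallower cells. The code for ratios was tested on simulated data. With 1 library per group there were no replicates and no tests between groups. The members and gene lists were chosen with earlier results of these data known. The rule for named genes took all 10 members, the genes of the pathway lists, and for each member the 3 genes with the highest Pearson's r, of which the text gives the list genes that passed 2-fold, apart from 1 that is not reported here, and some receptors and ligands. Alternatives were a stricter filter, no doublet removal, resolution 2, each library clustered by itself, members kept in clustering, edgeR 4.0.16 TMM (R 4.3.3) and median-of-ratios scaling, the mean of per-cell CPM, other UMI minimums and thinning. Leaving out shared barcodes, weighting clusters alike and leaving out cluster 13 (endothelial-like, led by Apln) were added after seeing the data.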

Additional observations from a re-analysis of the deposited data

How the results depend on the processing

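With 1 library per group no library could be left out. No paired analysis was possible because each group has 1 library. For CO hydrogel over hydrogel, the count of members at least 2-fold lower stayed within 1.5 times of 3 (2 to 4) under every alternative that was run, but the members differed. After thinning it held neither Csf2 nor Lif, which had too few UMIs for a ratio in any pair. Csf2 was also left out under the minimum of 100 UMIs. Csf3 was not among them without cluster 13 (-0.89), with the stricter filter (-0.90), without doublet removal (-0.93), with clusters weighted alike (-0.94) and at resolution 2 (-0.98). Lif was not with each library clustered by itself (-0.92), where Csf1 and Il11 (-1.94) joined. In the same pair the count of members at least 2-fold higher (0) became 1 (Il11) after thinning to 1000 UMIs and with clusters weighted alike. For CO hydrogel over untreated, the 1 member higher (Csf3r) became 0 with TMM factors, with median-of-ratios factors and with clusters weighted alike. The 3 members lower became 5 with either set of factors (Csf1, Csf2, Il6, Lif and Osm) and 0 after thinning, where Il6 was at -0.90 against -1.02 and Csf2 and Lif had too few UMIs for a ratio. Il6 also missed 2-fold at resolution 2 (-0.98), with the mean of per-cell CPM (-0.88) and with each library clustered by itself (-0.55). Csf2 missed it without cluster 13 (-0.99), with clusters weighted alike (-0.96) and with the stricter filter (-0.88). For hydrogel over untreated, the 1 member higher (Csf3r) became 0 with either set of factors and with clusters weighted alike, and 2 (Csf2 and Csf3r) with the mean of per-cell CPM. The 1 member lower (Il11) became 0 with the stricter filter, at resolution 2 and with the mean of per-cell CPM, and 2 (Il6 and Il11) without doublet removal and with either set of factors. The cause was not tested. Of the single ratios past 2-fold, that of Il11 in fibroblast-like cells for hydrogel over untreated changed sign, with -1.05 becoming 0.45 under the stricter filter. All 30 ratios in home classes stayed within their counting intervals without shared barcodes, and 28 without cluster 13. After thinning 24 ratios could be given, and 11 of them stayed within their counting intervals. With the stricter filter and with clusters weighted alike 16 of 30 stayed within them, and with either set of factors 18 of 30. At resolution 2, with each library clustered by itself and with the mean of per-cell CPM it was 20 of 30. Without doublet removal it was 24 of 30, and with members kept in clustering 27 of 30. Depth limits Csf2 and Lif most, with 349 and 675 UMIs over all kept cells.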
